A study of Mus musculus with 16 samples.

Results

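Serum amyloid A and other acute phase reactants of the liver were followed in 16 male mice, 8 heterozygous for a targeted lipoprotein lipase allele (Lpl+/-) and 8 wild type littermates. The 7 genes were Saa1, Saa2, Saa3, Orm1, Orm2, Lcn2 and Hp, of 20551 features with a gene symbol and 36824 in all. They were chosen by symbol, with their mouse-to-mouse spread and their covariation already known, so levels, spread and correlations are given as descriptions, and nothing is rested on a test of them. Each of the 7 had 1 probe. All mice were on a chow diet, and each liver was hybridised on 2-colour arrays against the same pool, made from livers of 9 chow-fed wild type animals. The sources used here do not give strain, age, time of day or health status, or how the allele was targeted. Each value comes from a different animal, so biological and technical spread are mixed.

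The acute phase response is the change in hepatocyte secretion that follows infection or injury. Interleukin 6, through STAT3, and interleukin 1, through NF-kappaB, together with C/EBP factors, switch on transcription of secreted defence proteins. Serum amyloid A proteins are apolipoproteins carried on high density lipoprotein, orosomucoids (alpha-1-acid glycoproteins) bind lipophilic molecules in plasma, lipocalin 2 binds bacterial siderophores, and haptoglobin binds free haemoglobin. Lipoprotein lipase hydrolyses triglycerides of circulating lipoproteins, and comparing the genotypes asked whether having 1 intact Lpl allele went with a different liver transcriptome.

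Each value is the logarithm of a mouse over the pool, taken as log10. Neither base nor direction is stated in the sources used here. The values end at exactly 2 and -2, and the direction is likely from the order of the titles and from Lpl itself. Lpl ran from -0.573 to -0.208 (median -0.362) in Lpl+/- and from -0.0622 to 0.0496 (median -0.0234) in wild type livers, with no overlap (limma adjusted p = 0.0158). Its sign helped to set the direction and is no separate evidence. Array medians lay between -0.0045 and 0.0072, and no value of the 7 genes stood at the limit. Over all probes, wild type 5 and wild type 8 opposed each other (r = -0.352, the only pair of 120 below -0.3), and the values do not settle the direction of these arrays. Ranks, ranges, counts and correlations below are those of the deposited direction. For some, values with wild type 5 or wild type 8 read the other way (turned) are given beside them. Others would change as well and are not all listed. A ratio to a liver pool gives no level, so the labelled tissue cannot be checked by the presence or absence of markers. In whole liver, fewer cells of a type and less RNA per cell cannot be told apart.

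The promoters of the genes that moved together are shown first, because shared control by C/EBP, STAT and NF-kappaB factors is textbook knowledge for this response. RefSeq sequences of GRCm38.p6 were matched for 5 of the 7 genes. The 250 bases before the transcript start are printed 5′ to 3′ on the gene's strand, and capitals mark every match, on either strand, to the C/EBP letters TTNNGNAA or the TATA box letters TATAAA. In this order they lie at chr7:46742981-46743230 (minus strand), chr7:46751583-46751832 (plus), chr7:46715677-46715926 (minus), chr4:63362199-63362448 (plus) and chr2:32387740-32387989 (minus).
Saa1: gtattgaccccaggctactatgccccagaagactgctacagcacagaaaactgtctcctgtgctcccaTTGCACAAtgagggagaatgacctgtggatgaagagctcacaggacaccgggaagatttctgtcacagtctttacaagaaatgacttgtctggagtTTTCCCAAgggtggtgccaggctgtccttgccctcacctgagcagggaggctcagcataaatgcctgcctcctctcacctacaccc
Saa2: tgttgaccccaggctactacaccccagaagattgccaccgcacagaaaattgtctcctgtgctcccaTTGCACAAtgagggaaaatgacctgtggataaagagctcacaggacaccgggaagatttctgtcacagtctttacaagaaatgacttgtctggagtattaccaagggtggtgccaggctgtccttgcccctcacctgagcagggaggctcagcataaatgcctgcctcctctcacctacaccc
Saa3: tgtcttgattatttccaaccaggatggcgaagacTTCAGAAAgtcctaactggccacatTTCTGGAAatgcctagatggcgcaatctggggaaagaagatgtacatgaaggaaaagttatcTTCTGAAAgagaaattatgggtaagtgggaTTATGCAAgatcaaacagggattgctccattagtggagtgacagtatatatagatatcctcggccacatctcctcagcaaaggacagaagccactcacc
Orm2: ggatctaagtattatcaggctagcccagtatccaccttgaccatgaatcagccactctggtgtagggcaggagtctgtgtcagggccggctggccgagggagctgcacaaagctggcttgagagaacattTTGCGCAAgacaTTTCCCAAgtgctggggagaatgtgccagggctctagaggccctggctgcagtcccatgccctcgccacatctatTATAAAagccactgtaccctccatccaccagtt
Lcn2: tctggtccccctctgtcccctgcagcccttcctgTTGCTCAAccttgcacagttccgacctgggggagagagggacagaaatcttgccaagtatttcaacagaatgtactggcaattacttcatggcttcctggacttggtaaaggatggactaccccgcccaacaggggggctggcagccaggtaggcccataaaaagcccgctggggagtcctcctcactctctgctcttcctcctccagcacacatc

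The promoters of Saa1 and Saa2 were 94.8% identical (238 of 251 aligned columns), whereas every other pair lay between 45.2% and 52.6%. C/EBP letters occurred in 5 of the 5, with 2 matches in Saa1, 1 in Saa2, 4 in Saa3, 2 in Orm2 and 1 in Lcn2, and in 36.8% of all 32851 promoters of this length. No match overlapped another. The match TTGCACAA stood 182 bases before the start in Saa1 and 183 in Saa2, and Orm2 held TTGCGCAA at 120 bases. TATA box letters occurred in Orm2 alone, against 12.4% of all promoters. STAT letters (TTCNNNGAA) and NF-kappaB letters (GGG and TTTCC, 2 bases apart) were in none of the 5, against 7.02% and 1.41% of all promoters, which says only that these letters are not in these windows.

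Saa1 and Saa2, the main hepatic serum amyloid genes of the mouse, had the widest ranges along with Saa3. Saa1 ran from -1.43 to 0.513 with a median of -1.23 in Lpl+/- livers, and from -1.60 to 0.0273 with a median of -1.04 in wild type livers. As deposited, its highest mouse was Lpl+/- 4, followed by wild type 8 (0.027), wild type 7 (-0.019), Lpl+/- 1 (-0.067), wild type 1 (-0.239) and Lpl+/- 7 (-0.511). The other 10 mice, 5 of each genotype, lay between -1.60 and -0.819, and the groups overlapped nearly throughout. Read in the opposite direction, wild type 5 would be the highest mouse, at 1.60 for Saa1, 1.67 for Saa2 and 1.64 for Saa3. Saa2 ran from -1.49 to 0.444 with a median of -1.37 in Lpl+/- livers, and from -1.67 to 0.0255 with a median of -1.18 in wild type livers. The order of the 6 upper mice was the same as for Saa1, with Lpl+/- 1 at -0.213, wild type 1 at -0.511 and Lpl+/- 7 at -0.639. Between the lowest and the highest mouse, Saa1 differed 130-fold, or 4.33-fold if the values were log2, and 1198-fold on the log10 scale with wild type 5 turned.

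Saa1 stood above Saa2, each against the pool, in 16 of 16 mice, by between 0.0018 in wild type 8 and 0.272 in wild type 1 (median 0.0700). RefSeq lists each of these symbols as a synonym of the other, so which probe reads which gene is uncertain. The transcripts are also close copies, and the extent to which 1 probe reads both was not tested. Their near identity over mice (r = 0.99) is therefore not a separate observation on each gene.

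Saa3, which in the mouse is also made outside the liver, by macrophages and fat cells, moved as its neighbours did. It ran from -1.44 to 0.794 with a median of -1.30 in Lpl+/- livers, and from -1.64 to 0.0153 with a median of -1.18 in wild type livers. Lpl+/- 4 stood 0.778 above the next mouse, and Saa3 was the only member of the trio to exceed Saa1 in any mouse, by 0.280 in that mouse alone. Over 16 mice adipocyte markers had a median r of 0.04 with the 7 genes and macrophage markers one of 0.26. Of these, 0 of 7 and 0 of 16 reached an r of 0.7. In wild type mice alone C1qb had 0.80, Vsig4 0.77 and Fcgr1 0.71, with Cd68 lowest of the macrophage markers (0.06). In Lpl+/- mice C1qb, Vsig4 and Fcgr1 had 0.27, 0.18 and 0.65. Lep had 0.75 in wild type and -0.09 in Lpl+/- mice, and Fabp4 0.42 and 0.79. No share of other features was computed within genotypes. The part of these markers in the Saa3 values was not tested.

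**Figure D1:**
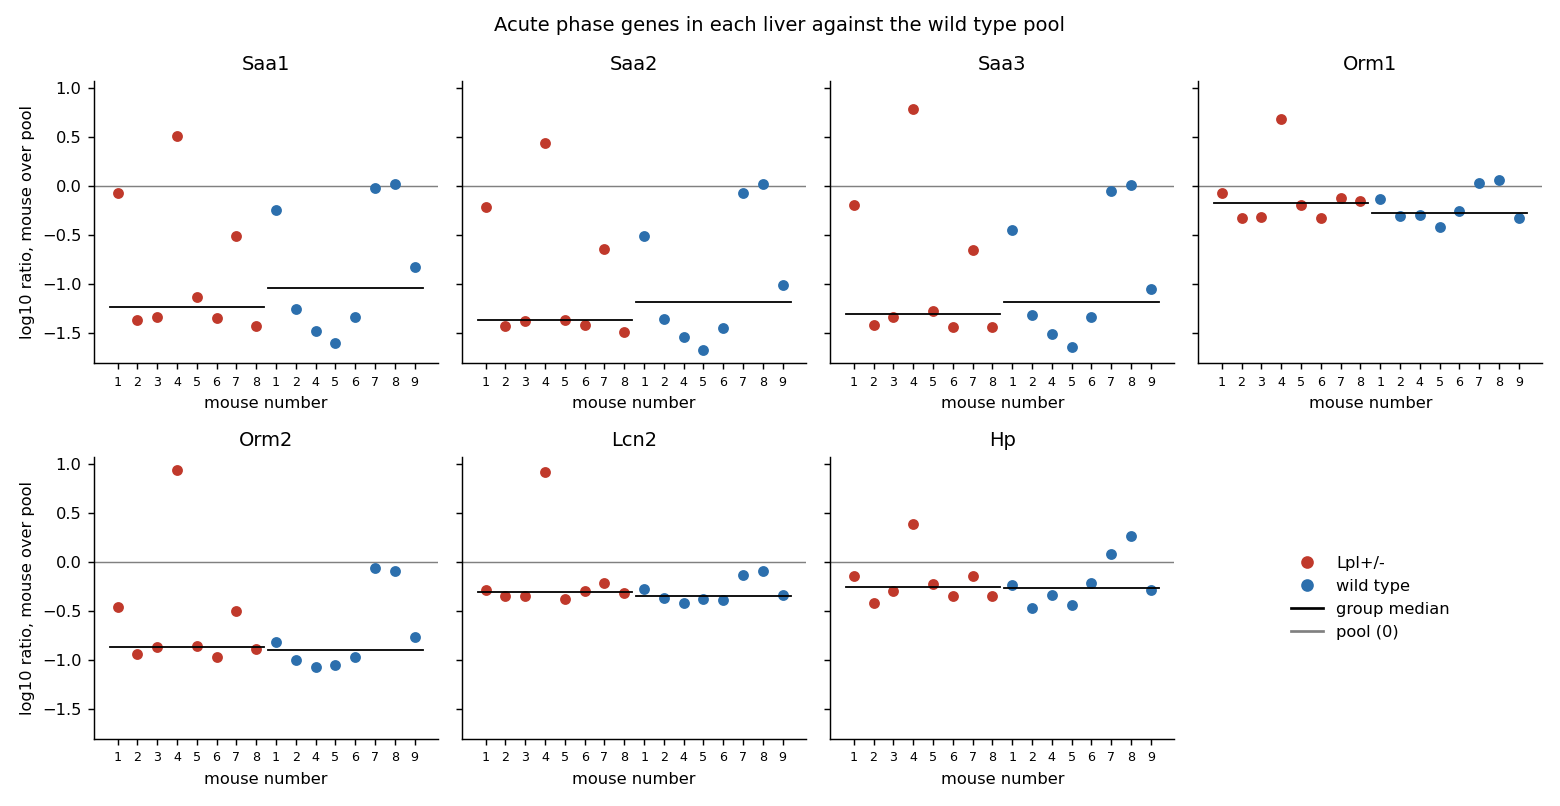
Log10 ratio of each liver over the wild type pool for the 7 genes, with the mouse number on the x axis, Lpl+/- mice in red, wild type mice in blue, black lines at group medians and the grey line at the pool. As deposited, Lpl+/- 4 was the highest mouse for each gene (0.513 for Saa1, 0.915 for Lcn2). With wild type 5 turned it would stay so for Orm1 and Lcn2 only, and wild type 5 would lie at 1.60 for Saa1. In the plotted values 10 mice lay at -0.819 or below for Saa1.

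Orosomucoid genes differed in how far they ranged. Orm2 ran from -0.974 to 0.944 with a median of -0.863 in Lpl+/- livers, and from -1.08 to -0.0598 with a median of -0.896 in wild type livers. Lpl+/- 4 lay 1.004 above wild type 7, the next mouse, a gap of 49.7% of the whole range. Wild type 5 turned would lie above both, at 1.05. Below these came wild type 8 (-0.088), Lpl+/- 1 (-0.461) and Lpl+/- 7 (-0.498). Wild type 1, with an intermediate Saa1, lay at -0.819 for Orm2, within the range of the 10 mice of lowest Saa1 (-1.08 to -0.760).

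Orm1 ran from -0.328 to 0.691 with a median of -0.171 in Lpl+/- livers, and from -0.411 to 0.0615 with a median of -0.270 in wild type livers. The gap from Lpl+/- 4 to the next mouse took up 57.1% of the range as deposited, and wild type 5 turned would lie within it, at 0.411. The genotypes overlapped apart from Lpl+/- 4. Orm1 and Orm2 are near copies of each other and of Orm3, and how far their probes cross-read was not tested.

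Lcn2, which hepatocytes make in the acute phase and which neutrophils store in their granules, was set apart in a single mouse. It ran from -0.374 to 0.915 with a median of -0.309 in Lpl+/- livers, and from -0.415 to -0.0916 with a median of -0.348 in wild type livers. The gap between Lpl+/- 4 and wild type 8 was 1.01, or 75.7% of the range, against 23.0% for Saa1. The 15 other mice kept within -0.415 to -0.092, with wild type 8, wild type 7 (-0.129) and Lpl+/- 7 (-0.212) at the top of them. Wild type 5 turned would lie at 0.380 and wild type 8 turned at 0.092, both still below Lpl+/- 4. Among the 10 mice of lowest Saa1, Lcn2 varied by an SD of only 0.0345, compared with 0.213 for Saa1.

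Of 13 neutrophil markers other than Lcn2, 4 had an r of at least 0.7 with the 7 genes over 16 mice, against 2.29% of other features. These were Chil3 (0.86), the calprotectin genes S100a8 (0.85) and S100a9 (0.81), and the chemokine receptor gene Cxcr2 (0.75). Over the 14 mice other than Lpl+/- 4 and wild type 8 they stood at 0.83, 0.59, 0.54 and 0.56. The marker genes Csf3r (-0.60), Mmp9 (-0.35) and Ltf (-0.30) had the lowest. The mean over these 13 markers lay between -0.067 and 0.081 in Lpl+/- and between -0.057 and 0.050 in wild type livers, with Lpl+/- 4 at the upper end. Their part in the Lcn2 values was not tested.

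Hp, the haptoglobin gene, had the smallest range. It ran from -0.419 to 0.387 with a median of -0.258 in Lpl+/- livers, and from -0.472 to 0.263 with a median of -0.264 in wild type livers. Lpl+/- 4 was again highest, but wild type 8 followed within 0.124, or 14.5% of the range, and wild type 7 came next at 0.086. Wild type 5 turned would lie above all of them, at 0.437. Wild type 8 turned would lie at -0.263, below the pool. Hp lies on chromosome 8, as Lpl does, with 403 measured genes between them.

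Most livers lay below the pool for every gene. Saa1, Saa2 and Saa3 were below it in 14 of 16 mice, Orm2 and Lcn2 in 15, and Orm1 and Hp in 13. With wild type 5 turned each count was lower by 1. With wild type 8 turned the counts were 15 for Saa1, Saa2 and Saa3 and 14 for Orm1, Orm2, Lcn2 and Hp. At the median mouse, Saa2 stood 22.8-fold below the pool, Saa3 19.5-fold, Saa1 15.7-fold, Orm2 7.29-fold, Lcn2 2.12-fold, Hp 1.84-fold and Orm1 1.66-fold. Of all features, 1.70% were below the pool in at least 13 mice as deposited, and of the 7 genes 7 were. With wild type 5 turned it was 1.55% of all features and 5 of the 7, and with wild type 8 turned 2.46% and 7. Nothing is rested on these counts, since the levels were known at the choice. With limma against the pool, 0 of the 7 were called in Lpl+/- livers (0.0625% of all features called) and 0 in wild type livers (0% called). Without adjustment, 5 of the 7 in Lpl+/- and 7 in wild type livers had p under 0.05, where all features gave 11.3% and 2.36%, and nothing is read from this for genes chosen with their levels known. Whether any of these wild type livers also went into the pool is not stated.

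The 7 genes were among the most variable on the arrays. Their SD over 16 mice was 0.714 for Saa3, 0.680 for Saa1, 0.676 for Saa2, 0.530 for Orm2, 0.318 for Lcn2, 0.262 for Orm1 and 0.245 for Hp, whereas the median feature had 0.0420. With wild type 5 turned the SD was 0.924 for Saa3, 0.881 for Saa1 and 0.911 for Saa2. All 7 reached an SD of 0.2 and a range of 0.7, as 1.83% and 2.13% of all features did, which the choice of genes fixes. Without Lpl+/- 4 the SD of Lcn2 was 0.0940, that of Orm1 0.140 and that of Orm2 0.328, while Saa1 (0.597), Saa2 (0.587) and Saa3 (0.574) stayed above 0.5. For the serum amyloid genes the spread lay among many mice of both genotypes, and for Lcn2 mainly in Lpl+/- 4.

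Between genotypes 0 of the 7 genes passed the threshold by limma over all features, where 6 features (0.0163%) were called. Saa1 averaged -0.834 ± 0.732 in Lpl+/- and -0.839 ± 0.675 in wild type livers (SD, n = 8 each), a difference of 0.00531 with a 95% interval of -0.685 to 0.696 (limma adjusted p = 0.998). In fold terms this interval runs from 0.207 to 4.96, so these mice cannot show whether the genotypes are alike. Saa2 differed by 0.0121 (interval -0.675 to 0.699) and Saa3 by 0.0476 (-0.677 to 0.772).

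The largest difference was that of Orm2, which averaged -0.568 ± 0.642 in Lpl+/- and -0.728 ± 0.418 in wild type livers (SD, n = 8 each). This difference of 0.160 had an interval of -0.372 to 0.691 (limma adjusted p = 0.909). Lcn2 averaged -0.158 ± 0.436 in Lpl+/- and -0.297 ± 0.123 in wild type livers (SD, n = 8 each), a difference of 0.139 (interval -0.176 to 0.454, limma adjusted p = 0.869). Orm1 differed by 0.102 (-0.160 to 0.363) and Hp by 0.0151 (-0.235 to 0.265). Without adjustment, 0 of the 7 had p under 0.05, against 5.60% of all features.

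The sign of these differences rested on single mice. Without Lpl+/- 4 all 7 were negative, with Saa1 at -0.187, Saa2 at -0.185, Saa3 at -0.190, Hp at -0.0672, Orm2 at -0.0565, Lcn2 at -0.0142 and Orm1 at -0.0115. The Saa1 difference was also negative without Lpl+/- 1 (-0.104), and it was -0.395 if the array of wild type 5 is read in the opposite direction (limma adjusted p = 0.955).

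**Figure D2:**
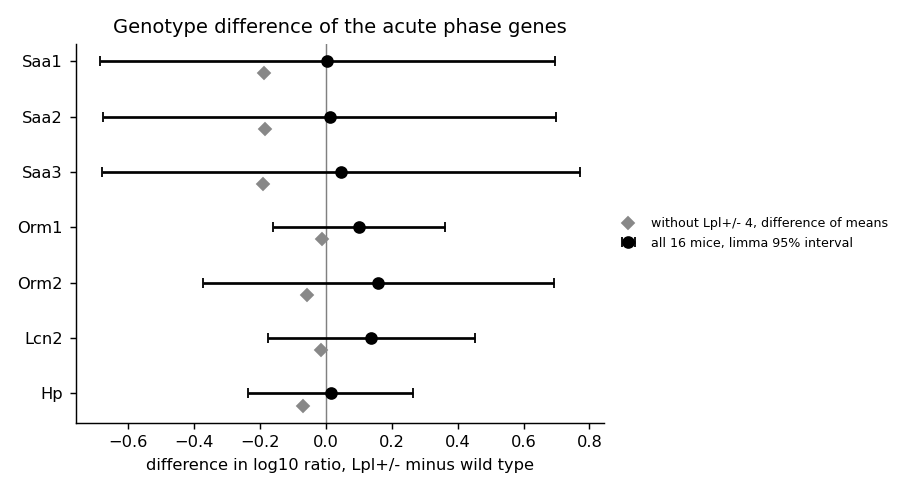
Difference in mean log10 ratio, Lpl+/- minus wild type, for each gene, with black points and bars for all 16 mice (limma 95% interval) and grey diamonds for the difference of means without Lpl+/- 4. Every interval includes 0, and all 7 diamonds lie below 0, from -0.190 to -0.0115.

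The 7 genes went up and down together from mouse to mouse. Over 16 mice the 21 pairs had Pearson r from 0.71 (Saa1 with Lcn2) to 0.99, with a median of 0.90, and Spearman rho from 0.65 (Lcn2 with Hp) to 0.99, with a median of 0.84. Within genotypes the median r was 0.94 in Lpl+/- and 0.93 in wild type mice (n = 8 each). Without Lpl+/- 4 and wild type 8, the mice farthest from the median of the mean standardised value, it was 0.84 over 14 mice, with a lowest r of 0.76. All mice share the same pool, and these correlations describe genes chosen for moving together.

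Correlations were also taken within the livers lowest in serum amyloid, where the narrower range of Saa1 (SD 0.213 against 0.680) lowers r by itself. Over the 10 mice with Saa1 below -0.8, a limit set after the values were seen, the median r was 0.40 and the lowest was -0.12 (Lcn2 with Hp). Saa1 kept r = 0.97 with Saa2 and Saa3 and 0.82 with Orm2 in these mice, but had 0.16 with Orm1, 0.27 with Lcn2 and 0.40 with Hp. Over the other 6 mice the median was 0.92.

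Within this close relation, single mice among the 6 differed in their profile. Lpl+/- 1 lay below wild type 7 for every gene, narrowly in Saa1 (-0.067 and -0.019). The values were -0.213 and -0.063 for Saa2, -0.194 and -0.046 for Saa3, and -0.068 and 0.031 for Orm1. They were -0.461 and -0.060 for Orm2, -0.282 and -0.129 for Lcn2, and -0.140 and 0.086 for Hp. Wild type 1 had Saa1 at -0.239 and Orm2 at -0.819, with Lcn2 at -0.278 and Hp at -0.239. In Lpl+/- 4, Orm2 (0.944) and Lcn2 (0.915) stood farthest above the pool. Saa3 (0.794), Orm1 (0.691), Saa1 (0.513), Saa2 (0.444) and Hp (0.387) followed. This order also depends on the pool, which the median mouse lay 15.7-fold below for Saa1 but 2.12-fold for Lcn2.

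**Figure D3:**
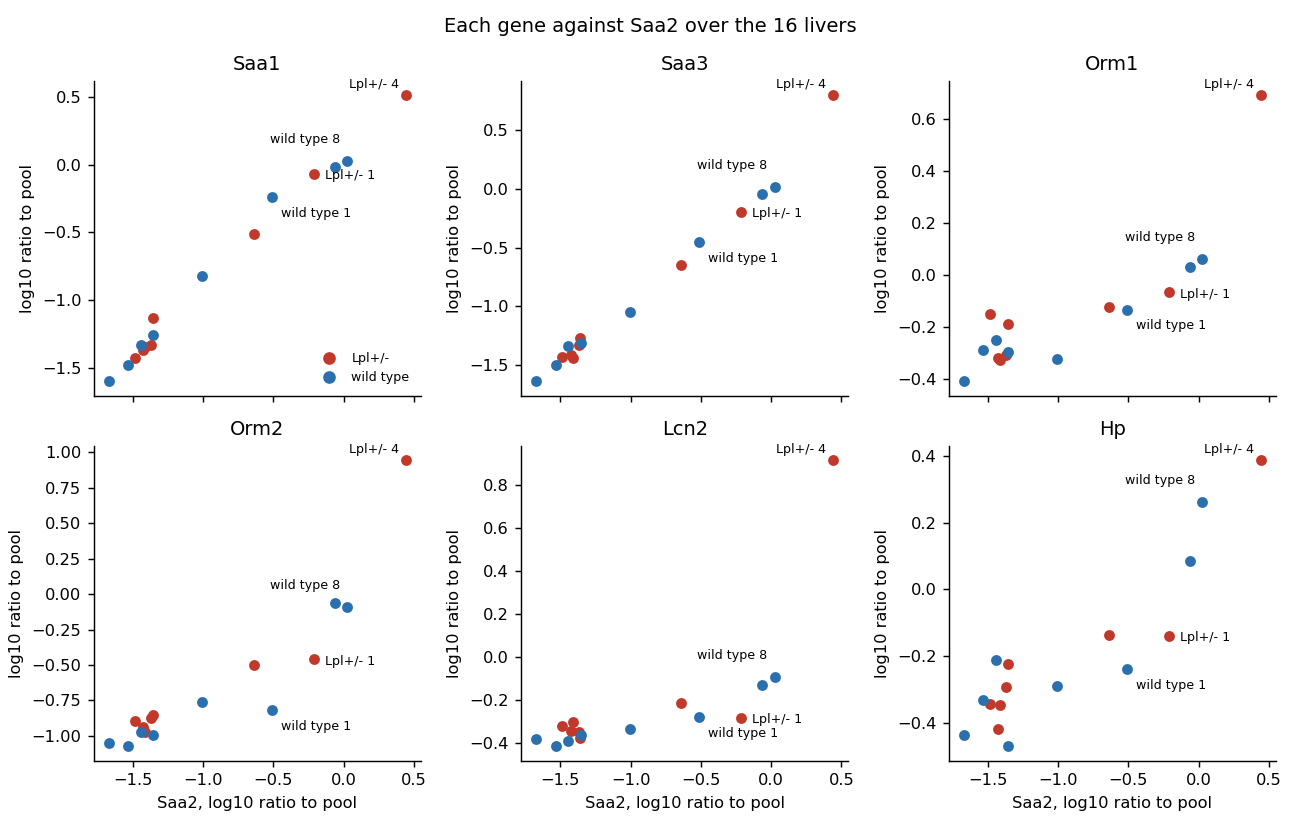
Log10 ratio to the pool of 6 genes (y axes) against that of Saa2 (x axis) in the 16 livers, Lpl+/- in red and wild type in blue. Saa1 and Saa3 follow Saa2 along its whole range (r = 0.99 each), while Lcn2 stays between -0.415 and -0.092 in all mice but Lpl+/- 4 (0.915).

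Other secreted proteins known to rise in the acute phase followed the 7 genes. Of 30 measured, 17 had an r of at least 0.7 with the mean standardised value of the 7 over 16 mice and 11 over 14, against 2.29% and 1.0% of other features. The median r of this list was 0.83 (0.53 over 14 mice), with -0.012 over all other features. With wild type 5 turned, 20 had an r of at least 0.7 over 16 mice, and the median was 0.78. With wild type 8 turned it was 16, with a median of 0.76. The share of other features at that r was not computed with an array turned, so these counts have no background. Hpx (haemopexin, the haem scavenger) and Lrg1 (leucine-rich alpha-2-glycoprotein) both had r = 0.97, with 0.92 and 0.94 over 14 mice. Itih4 and Serpina10 had 0.96 each, and Orm3, the remaining orosomucoid gene, also 0.96. How far the Orm3 probe reads Orm1 and Orm2, of which it is a near copy, was not tested. At the other end were Hamp2 (-0.51), Mbl2 (-0.49) and Pigr (-0.37). Between genotypes 17 of the 30 were higher and 13 lower in Lpl+/- livers, 0 past the threshold, where 51.0% of all features were higher. The median difference of the list was 0.00946 (0.000531 over all features).

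Plasma proteins known to fall in the acute phase ran the other way in part. Of 14 measured, 3 had an r of at most -0.7, where 1.94% of other features did, and 1 of at least 0.7 (2.29% of other features). The median of the list was -0.27. With wild type 5 turned, 2 had an r of at least 0.7 and the median was -0.11. With wild type 8 turned, 0 did and the median was -0.18. No share of other features was computed for the turned arrays. Albumin (Alb) had -0.79, corticosteroid-binding globulin (Serpina6) -0.73 and transthyretin (Ttr) -0.73, but without Lpl+/- 4 and wild type 8 only Serpina6 remained at that level (-0.71; 0.554% of other features), with Ttr at -0.54 and Alb at -0.11. Alb was at -0.701 in Lpl+/- 4. Apoa4 (0.83, and 0.63 over 14 mice) was highest, and Trf had 0.69 over 16 mice but 0.04 over 14. Of the 14, 5 were higher and 9 lower in Lpl+/- livers, 0 past the threshold, where 51.0% of all features were higher.

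In the signalling lists some genes had a high r, and the activity of the pathways was not measured. For interleukin 6, STAT3 and C/EBP, 4 of 19 measured genes had an r of at least 0.7, against 2.29% of other features, with a median of 0.24. Over 14 mice 2 of the 19 did, against 1.0% of other features. With wild type 8 turned it was 3 over 16 mice, with a median of 0.06. With wild type 5 turned it was 4, with a median of 0.34. The shares of other features hold for the deposited direction only. Il6, the cytokine itself, had r = 0.97 (0.91 over 14 mice) and ran from -0.333 to 0.460. Socs3, the feedback inhibitor that STAT3 induces, had 0.87 (0.58 over 14 mice), Steap4, a metalloreductase, 0.83 (also 0.83 over 14 mice) and Stat3 0.73 (0.56 over 14 mice). The lowest were Cebpa (-0.40), Cish (-0.38) and Lifr (-0.34).

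For interleukin 1, tumour necrosis factor and NF-kappaB, 4 of 21 had an r of at least 0.7, against 2.29% of other features, with a median of 0.20. With wild type 5 turned it was 2 of 21, with a median of 0.15, and with wild type 8 turned 1, with a median of 0.08. Here too no share of other features was computed for the turned arrays. The receptor genes Il1r1 (0.88) and Tnfrsf1a (0.73), the chemokine gene Cxcl1 (0.84) and the NF-kappaB subunit gene Rela (0.71) were highest, and over 14 mice Cxcl1 alone stayed above 0.7 (0.76). Tnfaip3 (-0.41), Irak3 (-0.32) and Il1rap (-0.31) were lowest. In Lpl+/- livers 8 were higher and 11 lower in the interleukin 6 list, and 7 higher and 14 lower in the interleukin 1 list. None was past the threshold, and 51.0% of all features were higher in Lpl+/- livers.

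Among stress-induced liver genes, 3 of 13 had an r of at least 0.7, against 2.29% of other features. These were the metallothionein genes Mt1 (0.88) and Mt2 (0.82), which bind zinc and copper, and Nnmt (0.85), a nicotinamide methyltransferase, and over 14 mice they stood at 0.62, 0.62 and 0.82. The glucocorticoid-responsive gene Tsc22d3 had -0.32, the clock gene Per1 -0.39 and Hmox1, the haem-degrading enzyme, -0.39. Of 11 genes tied to receptors and clearance, 2 had an r of at least 0.7, against the same 2.29% of other features. These were Hpx and Lrp1, the receptor for haem bound to haemopexin (0.83, and 0.48 over 14 mice). Next came Lcat (0.48), and the lowest were Apoa2, an apolipoprotein of high density lipoprotein (-0.72), Hmox1 and Slc22a17 (-0.24). In the stress list 5 were higher and 8 lower in Lpl+/- livers and in the clearance list 6 and 5, 0 past the threshold in each. The share of all features higher in Lpl+/- livers was 51.0%.

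**Figure D4:**
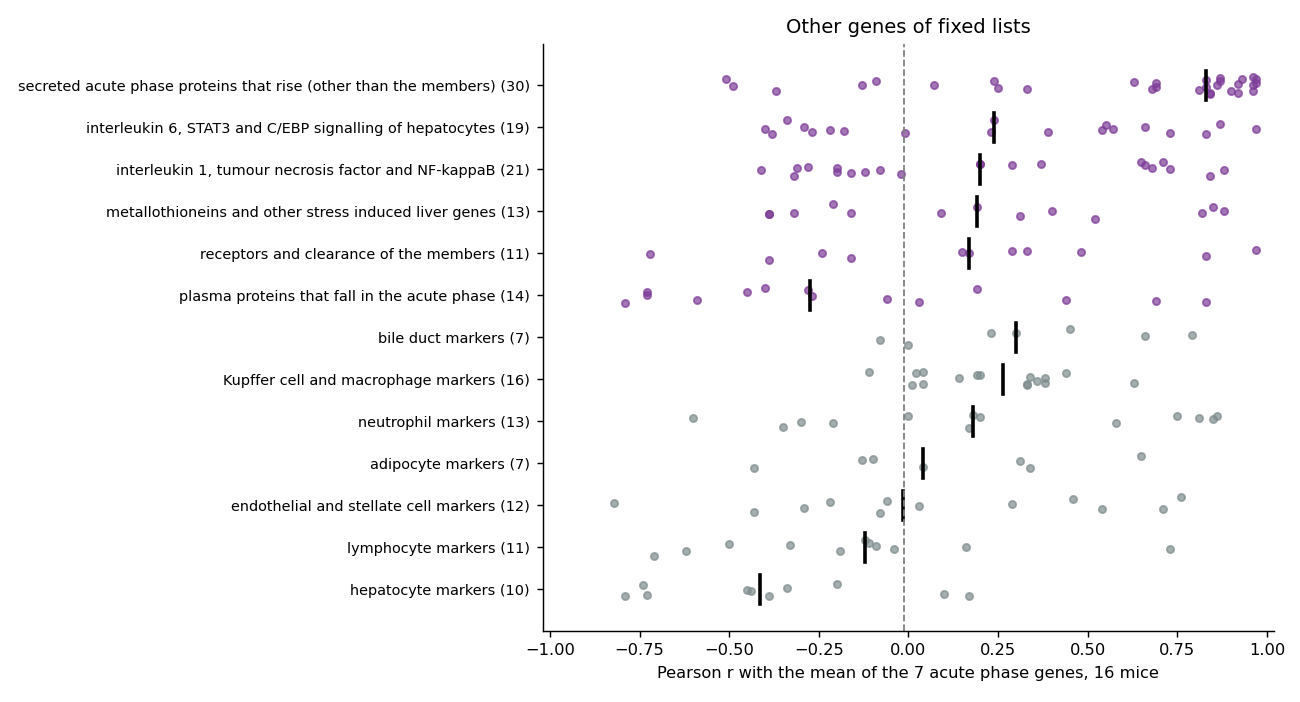
Pearson r over 16 mice between each listed gene and the mean standardised value of the 7 genes, 1 point per gene, with gene numbers in parentheses, pathway lists in purple, cell type markers in grey, black bars at list medians and a dashed line at the median of all other features (-0.012). Secreted acute phase proteins have a median of 0.83, and hepatocyte markers one of -0.41 (0.53 and -0.12 over 14 mice). Alb, Ttr and Apoa1 are in both the hepatocyte list and the list of plasma proteins that fall in the acute phase.

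Cell type marker lists had no median r above 0.30. It was 0.30 for bile duct, 0.26 for Kupffer cell and macrophage, 0.18 for neutrophil, 0.04 for adipocyte, -0.02 for endothelial and stellate, -0.12 for lymphocyte and -0.41 for hepatocyte markers. Over 14 mice the medians were 0.39 for bile duct, 0.31 for adipocyte, 0.25 for neutrophil, -0.02 for macrophage, -0.03 for endothelial and stellate, -0.07 for lymphocyte and -0.12 for hepatocyte markers. Over 16 mice, 0 of 16 macrophage and 0 of 7 adipocyte markers were beyond 0.7 in either direction. Spp1 (0.79), of 7 bile duct markers, had an r of at least 0.7, against 2.29% of other features. So did Col3a1 (0.76) and Col1a1 (0.71), of 12 endothelial and stellate markers. Of 11 lymphocyte markers Cd3e (0.73) did, beside Cd3d at 0.16 and Cd3g at -0.50. At most -0.7, against 1.94% of other features, were Reln (-0.82) and Klrb1c (-0.71) in those lists. Of 10 hepatocyte markers Alb, Ass1 (-0.74) and Ttr were. Over 14 mice 0 of the markers beyond 0.7 stayed so, with Spp1 at 0.54, Col3a1 at 0.58, Col1a1 at 0.66 and Cd3e at 0.25. Reln was at -0.55, Klrb1c at 0.01 and Ass1 at -0.46. The mean over hepatocyte markers lay between -0.150 and 0.076 in Lpl+/- and between -0.060 and 0.041 in wild type livers, with the lowest value in Lpl+/- 4. Over the macrophage markers the mean lay between -0.139 and 0.104 in Lpl+/- and between -0.138 and 0.125 in wild type livers. Their part in the values of the 7 genes was not tested, and none of these marker genes was past the threshold between genotypes.

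The features most like the 7 genes over 16 mice were led by 2610507B11Rik and Olfr854 (r = 0.99 each), and Olfr854 is an olfactory receptor gene by its array symbol. Next came Hpx, Il6, Rpap3, Lrg1 and Lin7b (0.97 each), then Serpina10, Itih4 and the glucose transporter gene Slc2a3 (0.96 each). Over 14 mice these 10 kept an r between 0.87 and 0.97, and 6 of them were again in the first 10. In 10 of the 10 the highest mouse, as deposited, was Lpl+/- 4. Probe sequences were not used here, so a symbol on the array stands for its annotation only. The most opposite were Cyp4f14 (-0.96), Gsta4, Ces1e and Ces2a (-0.94 each), and Gsta2 and Cox7a1 (-0.93 each). Cyp4f14, the glutathione transferase genes Gsta4 and Gsta2, and the carboxylesterase genes Ces1e and Ces2a encode enzymes of oxidation, conjugation and hydrolysis in hepatocytes. Gsta2 was at -0.778 in Lpl+/- 4. Of the 16 genes, 0 differed between genotypes (limma adjusted p from 0.845 to 1.0).

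For Lpl itself no relation to the acute phase genes was seen, but these mice cannot show that there is none. Its r with the 7 was 0.00 over 16 mice (rho 0.06), 0.28 in Lpl+/- and -0.15 in wild type mice (n = 8 each), and -0.09 over 14 mice. The genotypes did not overlap in Lpl, so the r over all mice also reflects genotype, and 8 mice per genotype leave r imprecise.

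The genes beside the 7 on the chromosomes were set against the same mean. Saa3, Saa4, Saa1 and Saa2 are neighbours on chromosome 7, and Orm1, Orm3 and Orm2 on chromosome 4. Saa4, the constitutive serum amyloid gene, had r = 0.87 (0.82 over 14 mice) but an SD of only 0.0835, against 0.680 for Saa1. Orm3 had an SD of 0.134. Of the 40 measured genes within 5 places of the 4 loci, 3 (7.5%) had an r of at least 0.7 after rounding. Without rounding, 2.29% of other features did, so the limits are not quite alike. The median of the 40 was 0.09. The 3 were Ldha (0.70, perhaps only by rounding) beside the Saa genes, Ambp (0.77) near the Orm genes and 1110008P14Rik (0.78) next to Lcn2. Over 14 mice these 3 stood at 0.56, 0.18 and 0.60.

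**Figure D5:**
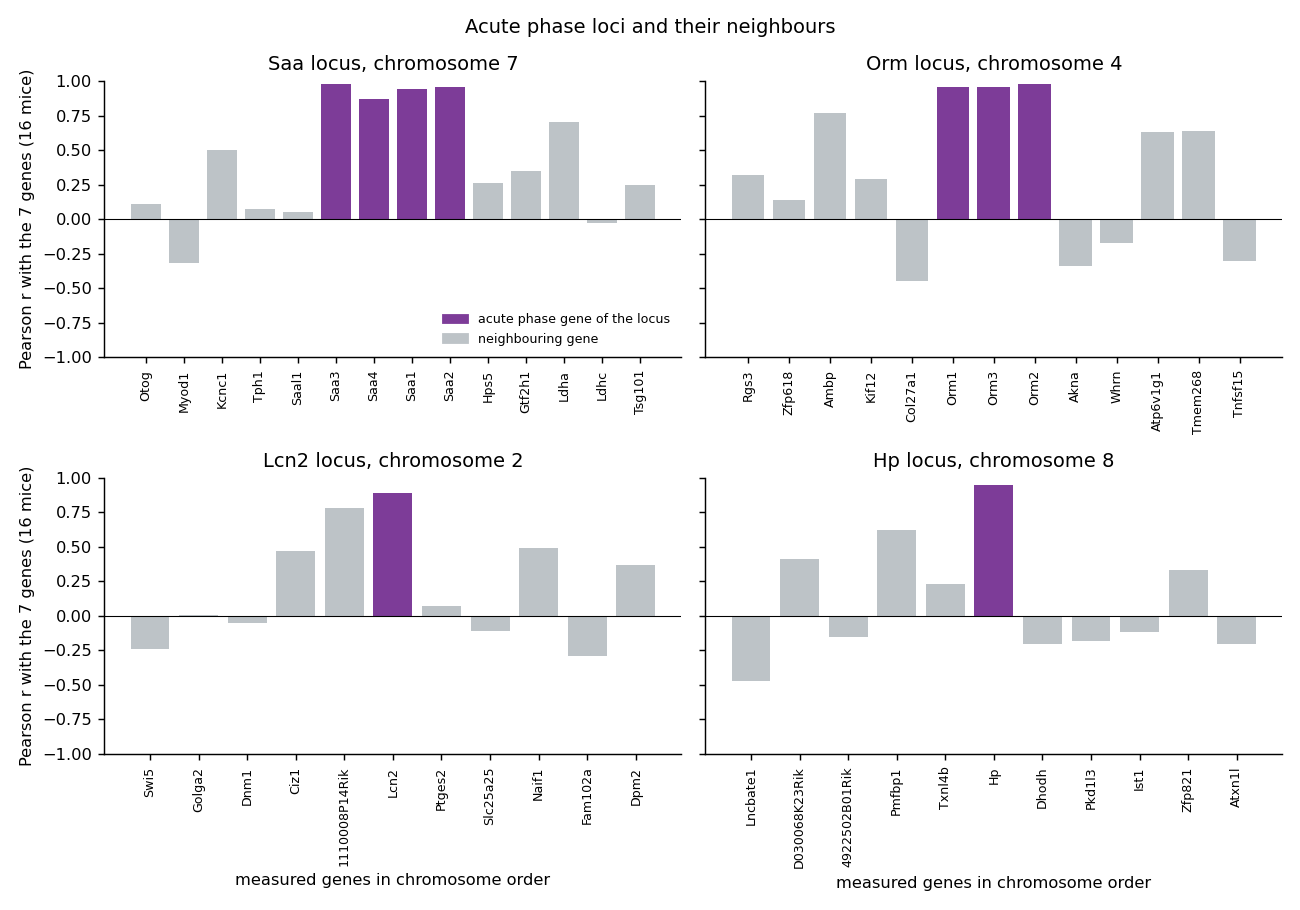
Pearson r over 16 mice with the mean standardised value of the 7 genes (y axis) for the Saa, Orm, Lcn2 and Hp loci and 5 measured genes on either side in chromosome order (x axis), acute phase genes in purple and neighbours in grey. The 7 genes form part of the mean they are set against. Saa4 and Orm3, which do not, had 0.87 and 0.96, and 37 of the 40 neighbours lie below 0.7 after rounding. Orm3 is a near copy of Orm1 and Orm2, and how far its probe reads them was not tested.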

How the data were processed

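The authors deposited 1 log ratio per probe and mouse, set against the pool, which was taken as log10. Per the labels, Cy3 was in channel 1 and Cy5 in channel 2, and per the design text dyes were swapped. The sources used here do not give how swapped hybridizations were joined, background correction, normalization, log base, scan dates or slides. Scale, centring (array medians near 0) and sign were left as deposited.

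Of 39556 probes, 23283 had 1 gene symbol, 16273 none and 0 several, and probes of the same symbol were averaged into 36824 features. A RefSeq gene table (GRCm38.p6) replaced 5076 old symbols by way of its synonyms and gave chromosomes and gene order. Genotypes were compared with limma 3.58.1 (R 4.3.3, lmFit and eBayes, two-sided) over all features, with Benjamini-Hochberg adjustment and a threshold of 0.05. Means against the pool were tested in the same way within each genotype. For arrays, the number of mice limits the precision. The fit and the correlations were tested on simulated data.

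The 7 genes and the 13 lists (185 genes, 176 measured) were chosen with earlier results of these data known. Genes named are the 7, Lpl, the 10 most and 6 least correlated with the mean standardised value of the 7, and up to 3 at each end of each list. Neighbours and genes beyond an r of 0.7 were named after their values were seen. Alternatives covered centring, quantile normalization, probes, turned signs, variance model, array weights, filters, the replicate numbers and each mouse left out.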

Additional observations from a re-analysis of the deposited data

Results flagged for a closer look

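Lpl+/- 4 lay far above the other 7 Lpl+/- mice in 4 genes. The gap to the next Lpl+/- mouse, as a share of the whole range of the group, was 0.875 for Lcn2 (0.915, next -0.212), 0.745 for Orm1 (0.691, next -0.0675), 0.733 for Orm2 (0.944, next -0.461) and 0.652 for Hp (0.387, next -0.138), each above Dixon's 95% critical value for 8 mice. No such gap was found for Saa1, Saa2 or Saa3, for Lpl, or in any wild type group in the deposited direction. Of 16 groups checked, 4 were beyond the value. The chance rate of about 1 in 20 does not hold for genes chosen with their spread known. The genes also move together in this mouse and do not count separately.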

How the results depend on the processing

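None of the 7 genes was past the threshold between genotypes in any of 182 recomputed differences under 26 settings (lowest limma adjusted p = 0.770), and 40 of these had the other sign. With quantile normalization the differences of Saa1, Saa2 and Saa3 were -0.0835, -0.0719 and -0.0468. With wild type 5 read in the opposite direction, those of Saa1, Saa2, Saa3, Orm1, Orm2 and Hp were -0.395, -0.406, -0.362, -0.00125, -0.103 and -0.0943. With array weights, those of Saa1, Saa2, Saa3 and Hp were -0.0502, -0.0561, -0.0475 and -0.0342. The cause was not tested. Leaving out each mouse in turn gave -0.187 to 0.129 for Saa1, -0.185 to 0.151 for Saa2, -0.190 to 0.180 for Saa3, -0.0115 to 0.139 for Orm1, -0.0565 to 0.255 for Orm2, -0.0142 to 0.170 for Lcn2 and -0.0672 to 0.0818 for Hp. The SD over mice then ran from 0.140 to 0.271 for Orm1, 0.328 to 0.547 for Orm2 and 0.0940 to 0.329 for Lcn2, the lowest without Lpl+/- 4 each time. The count of 6 features called was 0 with quantile normalization, 0 with robust and trended variance, 3 with wild type 8 read in the opposite direction and 1 to 9 without each mouse. With the replicate block (7 shared numbers) it was 1. The same-numbered mice correlated above 0.1 in 3 of 7 pairs. Pairs of different numbers were not set beside these, so whether the numbers pair the mice is not settled. The mean pairwise r of the 7 genes, 0.888, was 0.462 over the 10 mice with Saa1 below -0.8, an alternative chosen after seeing the data, and lay between 0.825 and 0.931 under every other alternative.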
